A study of Drosophila melanogaster with 12 samples.

Results

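The genes described here make, load and take back the monoamine transmitters of the fly: *ple*, *Ddc*, *Pu*, *Trhn*, *Tdc2* and *Tbh* for synthesis, *Vmat* for vesicle loading, and *DAT* and *SerT* for reuptake. They were chosen by name, through the FlyBase ID paired with each symbol, and are 9 of the 15682 genes counted. All 9 passed the minimum expression level used for testing. RNA was extracted from male heads, 200 to a pool, of flies between 5 and 9 days old. There were 2 genotypes, G9a DD1 mutants and controls of the same background. The mutant allele was made by excision of a P-element from the gene for the histone methyltransferase G9a. In controls that P-element was excised precisely. Flies of both genotypes were untreated (0 h) or had spent 6 or 12 h on food with 50 mM paraquat, a herbicide that generates reactive oxygen species and was used to induce oxidative stress (OS). Each of the 6 combinations had 2 libraries. All mutant libraries come from 1 allele, and no library comes from flies kept without paraquat until 6 or 12 h, so exposure and elapsed time (hour of day included) cannot be told apart. In whole heads, fewer cells of a type and less RNA per cell cannot be told apart either.

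As background, dopamine is made from tyrosine in a pair of steps, hydroxylation by tyrosine hydroxylase (*ple*, rate-limiting) and decarboxylation by aromatic amino acid decarboxylase (*Ddc*). *Ddc* also completes serotonin synthesis, after the neuronal tryptophan hydroxylase (*Trhn*), and both hydroxylases need tetrahydrobiopterin, whose synthesis starts with GTP cyclohydrolase I (*Pu*). Octopamine is made from tyrosine through tyramine by the neuronal tyrosine decarboxylase (*Tdc2*) and tyramine beta-hydroxylase (*Tbh*). *Vmat* loads all these amines into vesicles, and *DAT* and *SerT* return dopamine and serotonin to the cell. In insects dopamine is also used outside neurons, to harden and pigment the cuticle, and *Pu* also serves the making of eye pigments. Fly mutants of *ple*, *Pu* and *Catsup*, which encodes a negative regulator of tyrosine hydroxylase, are known for altered survival on paraquat.

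The libraries of 0 h were the deepest, with at least 32325896 reads counted on genes, against 19275805 to 24253605 at 6 h and at most 24078932 at 12 h, so depth and time point go together. When all libraries were thinned to the smallest, the same members were called in every comparison. No member had fewer than 269 reads in a library (*Tdc2*), and *Ddc* reached 29735. Values below are normalized counts, that is, reads divided by one size factor per library. The counts summed over 5 neuron markers (*elav*, *nSyb*, *Syt1*, *brp*, *Syx1A*) ran from 132527 to 160840 in the 12 libraries, and none of these markers was called in any comparison. Testis and gut protease markers summed to at most 81.5 and 9.63. The count on *G9a* was 2914 ± 246 in controls and 3551 ± 2.61 in mutants at 0 h (SD, n = 2). It does not check the genotype, because only part of the gene is excised, and which exons it holds is not stated in the sources used here.

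Levels were compared between genes only after division by the length of their merged exons, taken from a later annotation. These lengths include bases shared with other genes (26.2% for *Vmat*). How reads on such bases were counted is not stated in the study's methods, so the place of *Vmat* in the order is uncertain. In untreated controls *Ddc* stood first at 6493 ± 403 normalized counts per kb (SD, n = 2 here and below), followed by *Pu* at 1723 ± 53.9 and *Vmat* at 1657 ± 104, whose libraries overlapped. *ple* came next at 904 ± 12.9 per kb, before *Trhn* at 570 ± 24.0 and *Tbh* at 369 ± 6.66. The lowest levels per kb were those of *SerT* (266 ± 21.1), *Tdc2* (246 ± 8.94) and *DAT* (233 ± 9.31), each of which overlapped its neighbour in this order. The place of *ple* in the order moved. In mutants at 6 and 12 h it was sixth, at 307 ± 1.95 and 237 ± 4.04 per kb, below *Trhn* (407 ± 24.6 and 396 ± 1.59) and *Tbh* (347 ± 32.0 and 328 ± 2.43), with no overlap of *ple* with its neighbours in either group. *Ddc* was first in every group.

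**Figure D1:**
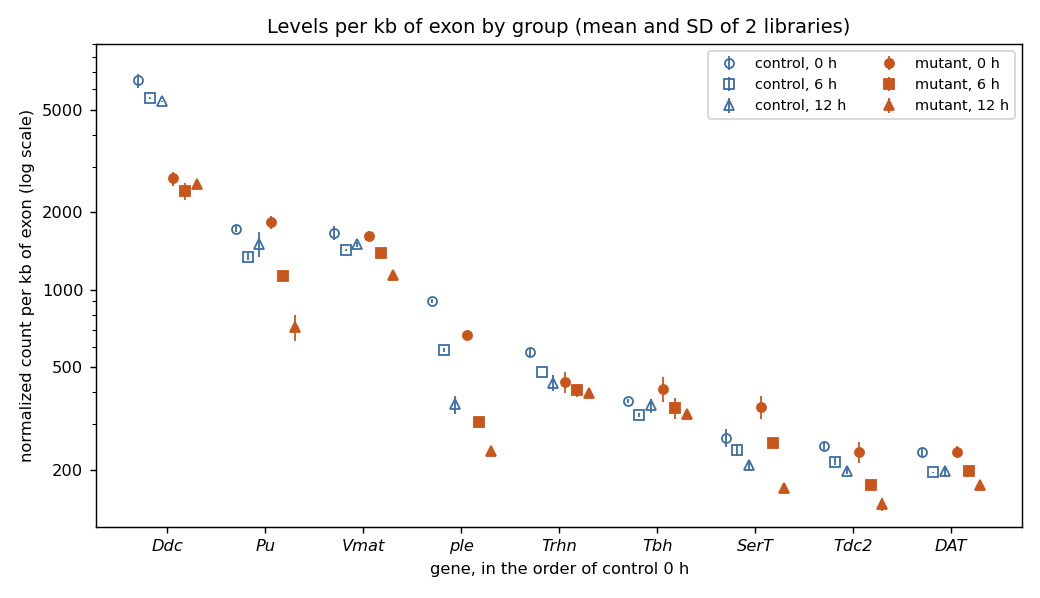
Level per kb of exon of each of the 9 genes (log scale) by genotype and hours of paraquat exposure; points are means and bars the SD of 2 libraries. *Ddc* is highest in every group but lower in all mutant groups, while the points of *ple* run down from 904 per kb in untreated controls to 237 per kb in mutants at 12 h.

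Across OS exposure the monoamine genes lay below their 0 h levels in both genotypes, and most of these differences were small. A gene was called where it passed a fold change of 1.5 and a Benjamini-Hochberg adjusted p of 0.05 in limma, fitted on log2(normalized count + 1) over 10530 genes. In controls 1 of the 9 was called at 6 h and 1 at 12 h, in both cases *ple*, against 1.6% and 2.86% of all tested genes called lower. In mutants 2 were called lower at 6 h (*ple* and *Pu*) and 4 at 12 h (*ple*, *Pu*, *SerT* and *Tdc2*), against 5.19% and 10.3% of all genes. None was called higher, against 5.68% and 7.31% of all genes in controls and 8.05% and 12.7% in mutants. All 9 fitted changes were below 0 in each of these 4 comparisons, where 47% (controls, 6 h), 49.3% (controls, 12 h), 50.9% (mutants, 6 h) and 50.8% (mutants, 12 h) of all genes were. The median log2 fold change of the 9 was -0.23 and -0.27 in controls and -0.25 and -0.51 in mutants at 6 and 12 h. Over all genes the medians were 0.02, 0.00, -0.01 and -0.01. Both exposed libraries lay below both 0 h libraries for 9 members in controls at 6 h and for 8 in each of the other comparisons, against 27.9%, 32.6%, 35.5% and 39.6% of all genes. The exceptions were *Tbh* in controls at 12 h, *Trhn* in mutants at 6 h and *Ddc* in mutants at 12 h.

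**Figure D2:**
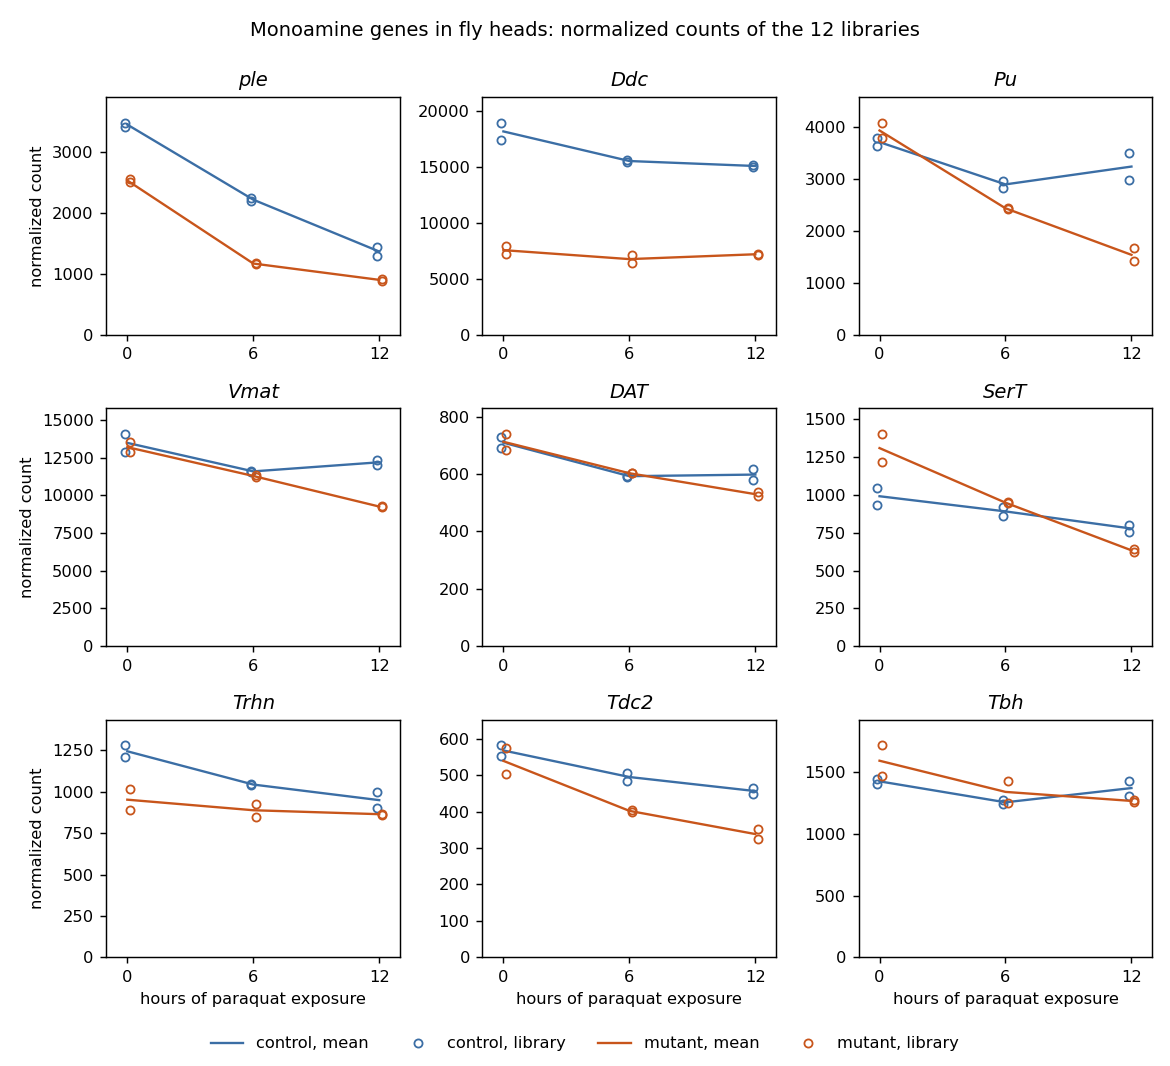
Normalized counts of the 9 genes against hours of paraquat exposure, with a circle per library and lines through the group means (controls blue, mutants orange; the axes start at 0). The *ple* lines fall in both genotypes, the *Ddc* lines lie apart at each time point, and the *Pu*, *SerT*, *Tbh* and *DAT* lines cross between 0 and 12 h.

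*ple* fell in both genotypes at both time points. Its 2 control libraries read 3408 and 3477 normalized counts at 0 h, 2187 and 2240 at 6 h, and 1442 and 1286 at 12 h. The 2 mutant libraries read 2508 and 2548, then 1173 and 1162, then 911 and 889. No libraries of different groups overlapped, and from high to low the groups ran control 0 h, mutant 0 h, control 6 h, control 12 h, mutant 6 h, mutant 12 h. In controls *ple* fell by 35.7% at 6 h (log2 fold change -0.64, SE 0.06, limma adjusted p = 1.2e-05) and by 60.4% at 12 h (-1.34, SE 0.06, adjusted p = 2.4e-08). In mutants it fell by 53.8% at 6 h (-1.11, SE 0.06, adjusted p = 3.4e-08) and fell by 64.4% from 0 h to 12 h (-1.49, SE 0.06, adjusted p = 1.3e-09). At 6 h the mutant change exceeded the control change by -0.48 on the log2 scale (95% interval -0.65 to -0.31, adjusted p = 0.0016), which missed the fold threshold. At 12 h this difference was -0.15 (-0.32 to 0.02, adjusted p = 0.18).

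Between the genotypes *ple* was lower in mutants. At 0 h the difference was -0.45 (SE 0.06, limma adjusted p = 0.000125), short of 1.5-fold. It was called at 6 h (-0.92, adjusted p = 3.4e-07) and at 12 h (-0.60, adjusted p = 4e-06). The call at 12 h rests close to the fold threshold: it was -0.51 without control 12 h replicate 1 and also fell short of 1.5-fold without mutant 12 h replicate 2. The mean difference over the 3 time points was -0.65 (SE 0.03, adjusted p = 1.7e-08).

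*Ddc* was lower in mutants at every time point. Control libraries held 18957 and 17364 normalized counts at 0 h, 15604 and 15431 at 6 h, and 15022 and 15125 at 12 h. Mutant libraries held 7905 and 7217, then 7135 and 6385, then 7261 and 7125. Every mutant library was below every control library, and among the mutants the 12 h libraries overlapped those of both other time points, while those of 6 h lay below those of 0 h. The difference was called before exposure (-1.26, SE 0.06, limma adjusted p = 1.2e-07, 58.4% lower), at 6 h (-1.20, SE 0.06, adjusted p = 1.4e-07) and at 12 h (-1.07, SE 0.06, adjusted p = 1.2e-07). Over the 3 time points its mean was -1.18 (SE 0.04, adjusted p = 5.9e-10). No change over time was called, with log2 fold changes of -0.23 and -0.27 in controls (6 and 12 h) and -0.16 and -0.07 in G9a mutants. The responses of the genotypes differed by 0.06 at 6 h (95% interval -0.13 to 0.26) and by 0.20 at 12 h (0.00 to 0.39, adjusted p = 0.13). *Ddc* is expressed in epidermis as well as neurons, and the markers of other head tissues differed between untreated mutants and controls in both directions. Summed hemocyte markers (4 genes) ran from 5035 to 5654 in untreated controls and from 2231 to 2247 in untreated mutants, and muscle markers (5 genes) from 88371 to 88385 and from 57081 to 57582. In the same comparison 7 of 8 antenna markers and 3 of 6 photoreceptor markers were called higher in mutants, against 5.04% of all tested genes. These photoreceptor markers were *Rh3* (0.63), *Rh5* (3.43) and *Rh6* (0.79, on the log2 scale), while *Rh4* was fitted lower (-0.46, not called). All 5 glia markers were fitted higher with none called. The part of these tissues in the result was not tested. In the annotation 3.15% of the exon bases of *Ddc* overlap *CG10561* on the opposite strand.

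*Pu* parted between the genotypes during exposure. Control libraries read 3626 and 3790 at 0 h, 2831 and 2958 at 6 h, and 2983 and 3492 at 12 h, while mutant libraries read 3778 and 4085, then 2426 and 2443, then 1416 and 1662. The 0 h groups overlapped, and at 6 and 12 h both mutant libraries were below both control libraries. In controls neither change was called (-0.36 with adjusted p = 0.0091 at 6 h, -0.20 with adjusted p = 0.093 at 12 h). In mutants *Pu* fell by 38.0% at 6 h (log2 fold change -0.69, SE 0.08, limma adjusted p = 5.9e-05) and by 60.9% at 12 h (-1.36, SE 0.08, adjusted p = 8.6e-08). The response of mutants differed from that of controls by -1.16 at 12 h (95% interval -1.42 to -0.90, adjusted p = 2.3e-05), which was called, and by -0.33 at 6 h (-0.59 to -0.07, adjusted p = 0.090), which was not. Mutants and controls differed by 0.08 at 0 h (adjusted p = 0.52), -0.25 at 6 h (adjusted p = 0.040) and -1.07 at 12 h (adjusted p = 1e-06), and only the last was called.

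The neuronal tryptophan hydroxylase *Trhn*, the serotonin-specific step of synthesis, was not called in any comparison. Its control libraries read 1282 and 1208 at 0 h, 1045 and 1043 at 6 h, and 998 and 902 at 12 h. Mutant libraries read 1016 and 890, then 851 and 927, then 868 and 863. Untreated mutants thus lay below untreated controls without overlap (-0.39, SE 0.08, limma adjusted p = 0.0030), whereas at 12 h the difference was -0.13 (adjusted p = 0.19). The change at 12 h was -0.39 in controls (adjusted p = 0.0022) and -0.14 in mutants (adjusted p = 0.16), and the difference between these responses was 0.26 (adjusted p = 0.11). *CG13912* shares 4.08% of the exon bases of *Trhn* on the opposite strand and rose in mutants at 12 h (0.88, adjusted p = 0.0018), opposite in sign to the fitted change of *Trhn*.

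For octopamine, *Tdc2* fell in mutants at 12 h. Its control libraries read 553 and 582, then 505 and 484, then 447 and 464 at 0, 6 and 12 h. Mutant libraries read 574 and 504, then 405 and 399, then 353 and 324. The genotypes overlapped at 0 h and no longer at 6 or 12 h. In mutants the change was -0.42 at 6 h (limma adjusted p = 0.0018, not called) and -0.67 at 12 h (SE 0.08, adjusted p = 2.9e-05). The latter was -0.58 without mutant 0 h replicate 1, the higher of its pair, and was then no longer called. In controls the change at 12 h was -0.31 (adjusted p = 0.012), and the responses differed by -0.35 (adjusted p = 0.039), short of the fold threshold.

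*Tbh*, the next enzyme of the same pathway, was not called in any comparison. Control libraries read 1446 and 1409 at 0 h, 1241 and 1274 at 6 h, and 1434 and 1312 at 12 h. Mutant libraries read 1721 and 1469, then 1255 and 1430, then 1276 and 1262. The groups at 6 h overlapped, and the largest of the 4 changes over time was -0.32 in mutants at 12 h (SE 0.08, limma adjusted p = 0.0056).

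*Vmat*, the vesicular carrier shared by all these neurons, differed between genotypes by -0.03 at 0 h and -0.04 at 6 h on the log2 scale. Control libraries held 12877 and 14076 at 0 h, 11529 and 11643 at 6 h, and 12367 and 12013 at 12 h. Mutant libraries held 13548 and 12840, then 11234 and 11331, then 9263 and 9245. The genotypes overlapped at 0 h, and the mutant libraries of 12 h were the lowest of all. None of these differences was called. In mutants the change at 12 h was -0.51 (SE 0.05, limma adjusted p = 3.7e-06), and it reached 1.5-fold with median centring of the libraries (-0.59). Mutants and controls differed by -0.40 at 12 h (adjusted p = 4.2e-05), and their responses by -0.37 (95% interval -0.52 to -0.22, adjusted p = 0.0019). *CG13330* overlaps 26.2% of the exon bases of *Vmat* on the opposite strand and had no read in any library. The study's methods do not state how reads on bases shared between genes were counted, so this need not mean that *CG13330* was not expressed.

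Of the reuptake transporters, *SerT*, for serotonin, was called in mutants. It read 1047 and 935 in controls at 0 h, 923 and 859 at 6 h, and 753 and 802 at 12 h. In mutants it read 1404 and 1215, then 947 and 951, then 645 and 622. Mutant libraries were thus above control libraries at 0 and 6 h and below them at 12 h, although none of these 3 differences was called (0.40 with limma adjusted p = 0.0035, 0.09 with adjusted p = 0.43, and -0.29 with adjusted p = 0.011). *SerT* fell by 51.5% in mutants at 12 h (log2 fold change -1.04, SE 0.08, adjusted p = 5.5e-07), against -0.35 in controls (adjusted p = 0.0061, not called). The response difference at 12 h was called (-0.69, 95% interval -0.94 to -0.44, adjusted p = 0.000729). It includes the difference of 0.40 at 0 h, from which both mutant changes start.

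*DAT*, for dopamine, was not called in any comparison. Control libraries read 690 and 730 at 0 h, 594 and 592 at 6 h, and 619 and 579 at 12 h. Mutant libraries read 741 and 685, then 603 and 603, then 523 and 538. The genotypes overlapped at 0 h, and the largest change was -0.43 in mutants at 12 h (SE 0.07, limma adjusted p = 0.000205), against -0.25 in controls (adjusted p = 0.014). The difference between these responses was -0.18 (95% interval -0.39 to 0.03). *ple* and *DAT* are both used by dopamine neurons, and at 12 h in controls the change of *ple* was -1.34 and that of *DAT* -0.25. The difference between these genes was not tested.

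Across the set, 1 member was called between genotypes at 0 h (*Ddc*), 2 at 6 h (*Ddc* and *ple*) and 3 at 12 h (*Ddc*, *Pu* and *ple*), all lower in mutants, against 5.25%, 7.39% and 10.2% of all tested genes. None was called higher, against 5.04%, 6.53% and 9.46%. Over the mean of the 3 time points *Ddc* and *ple* were called lower, against 7.83% of all genes. Both mutant libraries lay below both control libraries for 3, 6 and 9 of the 9 members at 0, 6 and 12 h, and above them for 2, 2 and 0. Of all genes 31.1%, 32.8% and 36.3% lay below and 29.8%, 34.7% and 37.4% above. The median difference of the 9 was -0.03 at 0 h, -0.23 at 6 h and -0.40 at 12 h, and over all genes it was -0.01, 0.00 and 0.00. In the response difference at 6 h limma called 0 members, with 3 at an unadjusted p under 0.05, and edgeR and DESeq2 on the recovered reads also called 0. The background there was 8.19% of genes called in either direction and 4.68% called lower. At 12 h 2 members were called (*Pu* and *SerT*), against 8.53%. The comparisons over time share the 0 h libraries of a genotype, so they are not independent of each other.

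**Figure D3:**
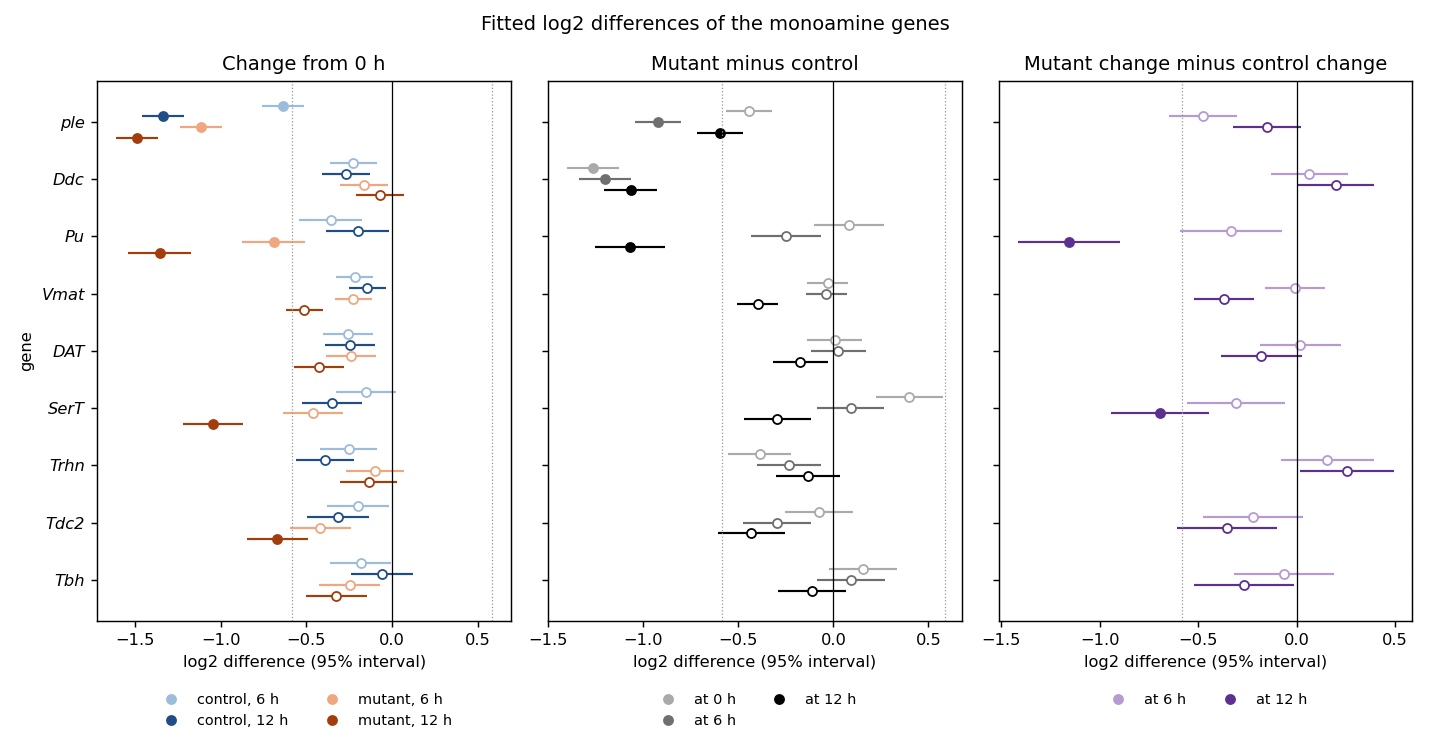
Fitted log2 differences of the 9 genes with 95% intervals: change from 0 h in each genotype (left), mutants minus controls (middle) and the mutant change minus the control change (right). Filled points were called, open points were not, and dotted lines mark 1.5-fold; *ple* is filled throughout the left panel, *Ddc* throughout the middle one, and *Pu* and *SerT* at 12 h in the right one.

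Genes that supply or regulate the same enzymes, or make related amines, came next. Of 9 other synthesis and cofactor genes, 1 was called higher in controls at 12 h, against 7.31% of all tested genes, and none in mutants at either time. That gene was *amd*, a relative of *Ddc* used in cuticle formation (0.89, SE 0.17, limma adjusted p = 0.0018). *Hn*, phenylalanine hydroxylase, which makes tyrosine and needs the same cofactor, held 3694 ± 120 normalized counts in untreated controls and 4642 ± 133 at 12 h, against 3250 ± 495 and 2303 ± 214 in mutants (SD, n = 2). It was lower in mutants at 6 h (-0.64, adjusted p = 0.000398) and at 12 h (-1.01, adjusted p = 6.3e-06). Its response difference at 12 h was -0.82 (adjusted p = 0.000954). *Hn* and *Pu* were thus both called lower in mutants at 12 h, while the other listed cofactor genes, *pr* (-0.54), *Sptr* (-0.28), *Pcd* (-0.18) and *Dhpr* (0.20), did not reach 1.5-fold. *Catsup* was not called in any comparison, and its largest difference was 0.33 at 0 h (adjusted p = 0.0021). The non-neuronal decarboxylase *Tdc1* had a response difference of -0.60 at 12 h (adjusted p = 0.014), and that of *amd* was -0.69 (adjusted p = 0.048). That of *Tdc1* includes a difference at 0 h (not called), where libraries read 235 and 227 in controls and 372 and 323 in mutants. At 12 h *Tdc1* read 224 and 269 in controls and 245 and 238 in mutants. At 0 h *amd* was higher in mutants (0.79, adjusted p = 0.0048), the opposite direction to *Ddc*.

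Other genes conjugate and recycle the amines or use dopamine in cuticle. Of the 10 listed, 7 were matched and 6 tested. In controls 2 were called lower at both times (*e* and *t*), and in mutants 4 were (*e*, *t*, *b* and *yellow-f2*), with none higher. Of all tested genes 1.6% and 2.86% were called lower in controls (6 h, then 12 h), and 5.19% and 10.3% in mutants. *e*, which joins beta-alanine to dopamine and histamine, fell by 0.98 and 1.19 on the log2 scale in controls and by 1.17 and 1.60 in mutants (highest limma adjusted p = 0.000458). *t*, which undoes that conjugation, held 10286 ± 588 normalized counts in untreated controls and 22784 ± 346 in untreated mutants (SD, n = 2). It then fell to 4763 ± 92.8 and 5459 ± 114 at 12 h. Its difference at 0 h was 1.15 (SE 0.05, adjusted p = 2.8e-08), and its response difference at 12 h was -0.95 (adjusted p = 2e-06). *b*, which makes beta-alanine, was lower in mutants at 6 h (-1.18, adjusted p = 5.3e-05) and at 12 h (-0.70, adjusted p = 0.0014). *yellow-f2*, a dopachrome conversion enzyme of melanin synthesis, was lower in mutants at 6 h (-1.19, adjusted p = 9e-05) and at 12 h (-1.58, adjusted p = 5e-06), and its response differed at 6 h (-1.01, adjusted p = 0.0081) and at 12 h (-1.40, adjusted p = 0.000432).

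On the receiving side, none of the 3 tested dopamine receptors was called in any of the 10 comparisons. Of 5 serotonin receptors, 1 was called: *5-HT2A* rose in mutants at 12 h (0.59, SE 0.06, limma adjusted p = 6.4e-06), where 12.7% of all tested genes were called higher. This value lies at the fold threshold. In controls *5-HT2A* also rose, from 2132 and 2163 normalized counts at 0 h to 2748 and 2923 at 12 h (0.40, not called). Its response differences were not called. Of 8 octopamine and tyramine receptors, *Octalpha2R* was lower in mutants at 6 h (-0.74, adjusted p = 4.6e-06) and at 12 h (adjusted p = 1.9e-07), with 1509 ± 18.3 normalized counts in controls and 751 ± 14.6 in mutants at 12 h (SD, n = 2). Its libraries already lay apart at 0 h, at 1565 and 1688 in controls and 1097 and 1078 in mutants. That difference was not called, and neither was a response difference of this gene. *Octbeta2R* was higher in mutants at 0 h (0.66, adjusted p = 0.000265) and had a response difference of -0.60 at 6 h (adjusted p = 0.0080). *TyrRII*, with at most 100 ± 1.40 normalized counts in a group, rose in controls at 12 h (0.71, adjusted p = 0.013) and was then lower in mutants (-0.66, adjusted p = 0.014). Thus 1 of the 8 was called lower in mutants at 6 h and 2 at 12 h, against 7.39% and 10.2% of all tested genes.

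Fitted changes over time below 0 were found in the genes of other transmitters too. *ChAT*, *Gad1*, *VGAT*, *VGlut* and *prt*, which mark acetylcholine, GABA and glutamate neurons or carry a vesicular transporter, were not called in any comparison. The median change of the 5 on the log2 scale was -0.25 (6 h) and -0.30 (12 h) in controls and -0.21 and -0.39 in mutants, beside -0.23, -0.27, -0.25 and -0.51 for the monoamine genes. At 12 h in mutants these 5 genes ranged from -0.43 to -0.32 and the monoamine genes from -1.49 to -0.07. For the neuron markers it was -0.22 (6 h) and -0.18 (12 h) in controls, and in mutants -0.13 and -0.18. A difference between these lists was not tested.

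**Figure D4:**
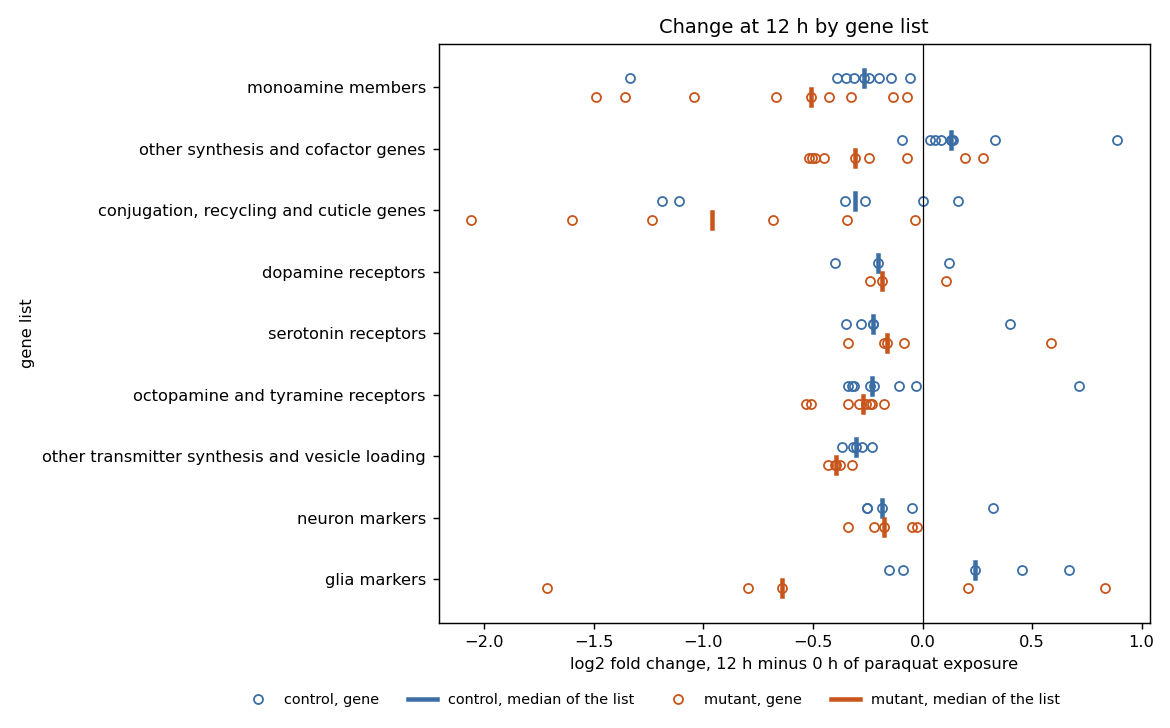
Log2 fold change at 12 h of paraquat exposure against 0 h for each gene of 9 lists (circles), in controls (blue) and mutants (orange), with bars at the list medians. The monoamine genes spread from -1.49 to -0.07 in mutants, whereas the 5 genes of other transmitters lie between -0.43 and -0.32.

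Markers of other head tissues moved with genotype and time as well. Summed fat body markers (5 genes) lay between 96961 and 102268 in untreated controls and between 8640 and 10559 in mutants at 12 h. Between these lay untreated mutants (71567 and 92195), mutants at 6 h (25087 and 26455), and controls at 6 h (68007 and 87110) and 12 h (62548.5 and 65091). The change in mutants at 12 h had the most calls among the monoamine genes, and also among all tested genes (2424 of 10530). Of 5 glia markers, *repo* (-0.80), *wrapper* (-1.71) and *Eaat1* (-0.64) were called lower and *moody* (0.83) higher in mutants at 12 h. Of all tested genes 10.3% were called lower and 12.7% higher there. The remaining marker, *Gs2*, was not called, with 17041 and 19365 normalized counts in untreated mutants and 19175 and 22901 at 12 h. Antenna markers (8 genes) summed to between 620 and 1002 in untreated controls, 4361 and 6104 in controls at 6 h, 1048 and 1275 in controls at 12 h, 7558 and 8539 in untreated mutants, 6219 and 6600 in mutants at 6 h, and 405 and 664 in mutants at 12 h. The part of these tissues in the results was not tested. The neuron marker sum differed by 1.21-fold between the highest and lowest library.

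The genes whose levels were most like each member over the 12 libraries were found by the root mean square difference of log2 levels, each centred on its own mean. For *ple* these were *AANATL2*, an arylalkylamine N-acetyltransferase-like gene (0.19), and *CG15870* (0.20), where the SD of *ple* itself was 0.71. For *Ddc*, with an SD of 0.63, they were *CG15725* (0.11) and *dao* (0.15). For *Pu*, with an SD of 0.48, they were *CG17224* (0.13) and a gene listed only as FBgn0032904 (0.14). *SerT*, with an SD of 0.34, was nearest to *ru* (0.09) and *Ncc69* (0.09). *Tdc2* was nearest to *alphaTub84D* (0.06) and *ergic53* (0.07). The remaining members varied little: *DAT*, with an SD of 0.16, was nearest to *shi*, the fly dynamin (0.04), and *Gad1* (0.04), *Vmat* to FBgn0015324 (0.05) and the sodium pump subunit *Atpalpha* (0.05), *Trhn* to *CG30158* and FBgn0083959 (0.06 each), and *Tbh* to *CG42594* and *Evi5* (0.06 each). No member was among the 2 nearest genes of another.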

How the data were processed

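Single-end RNA-seq reads from 12 libraries were aligned by the authors with BWA to build BDGP 5, counted per gene with HTSeq and divided by a DESeq size factor (tool versions are not given in the sources used here). The deposited table holds these normalized counts (signal) for 15682 genes. Each of the 188184 values was a whole number of reads (tolerance 0.01 reads) once divided by the value of 1 read, so reads were recovered. The authors' 4 deposited comparison tables (group means, fold changes and p-values) were not used.

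Genes averaging 10 or more normalized counts (10530) were tested in limma 3.58.1 under R 4.3.3, on log2(normalized count + 1) (6 group means, trend, 6 residual degrees of freedom). Genes were called at 1.5-fold and a Benjamini-Hochberg adjusted p of 0.05. The study's methods call the libraries of a condition biological duplicates. The p-values of a gene rest on the spread between duplicates, pooled over the 6 groups and moderated by limma. They do not measure the spread of the compared groups alone. Duplicates differed by more than sampling noise (chi-square per degree of freedom 4.33 to 19). The libraries that shared a sequencing lane could not be told from the labels. The alternatives were pseudocounts of 0.5 and 5, no minimum or a minimum of 50, TMM scaling, median centring, the compared libraries alone, a replicate block, edgeR 4.0.16 and DESeq2 1.42.0 on the recovered reads, thinned reads, and each library left out. On the recovered reads edgeR called 792 (6 h) and 1111 (12 h) genes in controls and 1425 (6 h) and 2470 (12 h) in mutants, against 766, 1071, 1395 and 2424 with limma. Of the calls in controls, 78.1% at 6 h and 71.9% at 12 h were higher, and 65.2% and 58.9% with median centring. The steps were tested on simulated data.

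Symbols, exon lengths and overlaps came from Ensembl annotation of a later build (BDGP 6), which named 15001 of the 15682 IDs and 95 of 100 listed genes (not *AANAT1*, *stw*, *PPO1*, *Dop1R2* and *VAChT*). The members and lists were chosen with earlier results of these data known. The genes named are the 9 members, up to 4 genes with the largest called change per list and any that complete a small count, *Hn*, *Catsup*, *Tdc1*, *amd* and *G9a*, overlapping genes, and the 2 genes nearest to each member.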

Additional observations from a re-analysis of the deposited data

Results flagged for a closer look

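For 2 members the change over 12 h of OS exposure differed between genotypes, by the limma test of the difference between the responses at a fold of 1.5 and an adjusted p of 0.05. The mutant change of *Pu* minus its control change was -1.16 on the log2 scale (SE 0.12, limma adjusted p = 2.3e-05). That of *SerT* was -0.69 (SE 0.11, limma adjusted p = 0.000729). The groups of 2 libraries were too small to look for a library far from its group.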

How the results depend on the processing

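The number of members called in each of the 10 comparisons stayed the same or within 1.5 times under all 23 alternatives. With 1 library left out, 1061 of the values of single genes kept their direction and side of the threshold, 3 lost the call and 16 changed sign; with the other alternatives 977 kept both, 1 gained the call and 3 changed sign. The sign changes fell on 9 of 90 gene comparisons, none of them called. With 1 library left out, the differences between genotypes at 0 h ranged from -0.050 to 0.062 for *DAT*, -0.17 to 0.017 for *Tdc2* and -0.094 to 0.035 for *Vmat*, and that of *Tbh* at 6 h from -0.0035 to 0.18. The change of *Tbh* in controls at 12 h ranged from -0.12 to 0.0069. The response differences at 6 h ranged from -0.017 to 0.14 for *Ddc*, -0.18 to 0.050 for *Tbh*, -0.037 to 0.075 for *DAT* and -0.073 to 0.055 for *Vmat*. *DAT* at 0 h was also -0.011 with median centring and -0.012 with thinned reads, and the response difference of *Vmat* at 6 h was 0.042 with median centring. The cause was not tested. The change of *Tdc2* in mutants at 12 h ranged from -0.76 to -0.58 and lost the call without mutant 0 h replicate 1. The difference of *ple* between genotypes at 12 h ranged from -0.68 to -0.51 and lost it when control 12 h replicate 1, or mutant 12 h replicate 2, was left out. Median centring moved all control changes by -0.10 and gave the gained call, *Vmat* in mutants at 12 h (-0.59). The replicate numbers did not pair the libraries in a constant direction. The correlation of the differences between replicates ran from -0.57 (controls, 6 h with 12 h) to 0.45 (controls, 0 h with 12 h) over the pairs of groups. A block on the replicate number cannot take up a difference whose sign changes between groups. With the replicate number as a block, 4 members were called in mutants at 12 h and 2 in the response difference at 12 h, as without the block, and no call of a member changed. The mean over the 3 time points has no fit on the compared libraries alone, since these are all 12. Every member had 269 reads or more in each library and kept its calls with thinned reads. Thinning does not measure the counting noise that remains. The 2 libraries per group also limit differences near the fold threshold.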
